A study of Mus musculus with 4 samples.

Results

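Immediate-early genes are transcribed within minutes of a stimulus, without the need for new protein synthesis, and most of their transcripts are short-lived. Here 10 of them were described in recruited renin cells: the zinc finger transcription factors Egr1, Egr2 and Egr3, the orphan nuclear receptors Nr4a1, Nr4a2 and Nr4a3, the early response genes Ier2 and Ier3, and the feedback genes Dusp1, a phosphatase that switches off MAP kinases, and Zfp36, an RNA-binding protein that promotes the decay of mRNAs with AU-rich elements. They were chosen by gene symbol as 10 of the 32647 symbols in the table, by a rule that sets no threshold on their values.

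The cells came from C57Bl6 mice that carried Ren1c-YFP, which marks renin-expressing cells with a yellow fluorescent protein under the promoter of renin. Adult mice, 2 months old, drank 0.5 g/L captopril, an inhibitor of angiotensin converting enzyme, and ate a diet low in sodium for 7 days, a treatment that makes vascular cells of the kidney resume renin expression. Kidney cortices were digested with collagenase and trypsin at body temperature, fluorescent cells were sorted, and cDNA amplified from a small pool of them was sequenced. There were 4 libraries of this single condition: 2 technical replicates of sample 1 and 2 of sample 2. The labels name the samples biological replicates and do not say whether each was 1 mouse, nor at which step the technical replicates were split. Untreated renin cells were not analysed here, and the treatment, the digestion and the sort were shared by all libraries, so their parts in a transcript level cannot be told apart.

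Values are TPM (transcript abundance corrected for gene length, scaled so that every library has an equal total). A level is the mean of both samples, each averaged over its technical replicates first, and its error is the SD over samples (n = 2). Estimated counts totalled from 19871382 to 47471036 per library, and 7198 to 8709 genes in sample 1 and 6405 to 7070 genes in sample 2 reached 1 TPM. Ren1 stood at 29637 and 28674 TPM in sample 1 and at 21904 and 15933 TPM in sample 2. Of 11 renin cell markers 9 reached 1 TPM in every library, beside 9.74% of all symbols. Markers of tubule cells were also present. The summed level of 10 thick limb, distal and collecting duct markers was 73.7 and 346 TPM in sample 1, against 1473 and 1372 TPM in sample 2. Umod was at 44.4 to 843 TPM. Of the 10, 7 were higher in both libraries of sample 2, beside 12.1% of the genes that reached 1 TPM in any library. The sum of 10 proximal tubule markers was 861 and 863 TPM in sample 1, against 1764 and 12893 TPM in sample 2, where Kap alone gave 1236 and 11140 TPM. Without Kap the other 9 summed to 806 and 843 TPM in sample 1, against 528 and 1753 TPM in sample 2, which overlap. Of the 9, 2 were higher in both libraries of sample 1 and 1 in both of sample 2. Over genes at 1 TPM in any library these shares were 26.4% and 12.1%. Technical replicates were far apart for single genes: over the 3179 genes at 1 TPM or more in every library, the median fold between technical replicates was 2.17 in sample 1 and 2.15 in sample 2. In bulk samples a smaller share of renin cells and less RNA per cell cannot be told apart.

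Both main routes from the cell surface to these genes are well described. MAP kinase signalling acts through serum response factor and its partners at CArG boxes, and cyclic AMP, the second messenger that also drives the renin gene, acts through CREB at cyclic AMP response elements. Egr proteins in turn bind GC-rich sites, and Nr4a receptors bind a monomer site called the NBRE without a known hormone. The upstream sequences of the members are shown because 5 of them hold the letters of the cyclic AMP half-site. RefSeq promoter windows (GRCm38.p6, 250 bases before to 50 after a start site) were found for 7 members: Nr4a1, Nr4a2, Nr4a3, Zfp36, Egr2, Dusp1 and Ier3. Egr1, Egr3 and Ier2 are named only. The stretches below run 5′ to 3′ on the gene's strand, with the half-site TGACG or its reverse complement CGTCA, and a CArG box where present, in capitals. Where a gene has several windows, the one with the most of these letters is shown.
Nr4a1 chr15:101266601-101266822 (+): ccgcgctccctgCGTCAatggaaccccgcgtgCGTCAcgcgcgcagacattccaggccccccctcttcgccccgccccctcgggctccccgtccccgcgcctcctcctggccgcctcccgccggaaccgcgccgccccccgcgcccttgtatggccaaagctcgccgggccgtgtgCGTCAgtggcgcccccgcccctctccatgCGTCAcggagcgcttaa
Nr4a2 chr2:57124098-57124215 (-): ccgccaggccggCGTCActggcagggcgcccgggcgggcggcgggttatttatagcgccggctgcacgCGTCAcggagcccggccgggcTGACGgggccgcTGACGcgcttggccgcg
Nr4a3 chr4:48045062-48045174 (+): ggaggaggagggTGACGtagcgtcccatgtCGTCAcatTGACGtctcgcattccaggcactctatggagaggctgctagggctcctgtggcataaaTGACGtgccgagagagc
Dusp1 chr17:26508596-26508675 (-): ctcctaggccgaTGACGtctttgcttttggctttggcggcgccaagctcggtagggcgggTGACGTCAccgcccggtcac
Egr2 chr10:67537746-67537830 (+): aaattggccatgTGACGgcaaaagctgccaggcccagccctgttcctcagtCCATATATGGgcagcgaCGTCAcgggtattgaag

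The stretches of Nr4a1, Nr4a2 and Nr4a3 each hold 4 half-sites. That of Dusp1 holds 3, of which 2 overlap on opposite strands in 1 full palindrome, TGACGTCA, and that of Egr2 holds 2 on either side of a CArG box. In the GENCODE M21 annotation of GRCm38, the Nr4a1, Dusp1 and Egr2 stretches lie in introns of longer transcripts of the same genes, the Nr4a2 stretch lies outside the gene, and the last 22 bases of the Nr4a3 stretch lie in its first exon. Counted on both strands, the half-site was present in windows of 5 of 7 members and in 20.8% of all 32851 windows, or 23.0% of the 27025 genes with a window. The full palindrome was in 1 of 7 members (1.79% of windows, 2.03% of genes) and a CArG box in 2, Egr2 and Zfp36 (1.63% of windows, 1.81% of genes). An Egr site, GCGGGGGCG or GCGTGGGCG, was in 2, Nr4a1 and Zfp36 (3.47% of windows, 3.93% of genes). The NBRE, AAAGGTCA, was in 0 of 7 (1.51% of windows, 1.70% of genes). These counts describe letters in the windows and do not show that a factor was bound. In GENCODE M21 (GRCm38) all members are protein-coding genes. The Nr4a genes lie apart, at chr15:101254269-101274795 (Nr4a1), chr2:57106830-57124003 (Nr4a2) and chr4:48045153-48086447 (Nr4a3). Egr1 lies on chromosome 18, Egr2 at chr10:67535475-67542188 and Egr3 at chr14:70077203-70082614. Dusp1 at chr17:26505590-26562128 and Ier3 at chr17:35821684-35822923 share a chromosome, and Ier2 lies at chr8:84661331-84662852 and Zfp36 at chr7:28376784-28380253.

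Of the 10 members, 8 were above 0 TPM. In every library 6 reached 1 TPM: Egr1, Nr4a1, Ier2, Ier3, Dusp1 and Zfp36. Over all symbols 9.74% met this level, and over the 19229 symbols above 0 TPM in any library 16.5% did. Nr4a2 and Nr4a3 reached 1 TPM in 3 of 4 libraries, and Egr2 and Egr3 were at 0. Together the members made up 1387 and 1274 TPM in the libraries of sample 1, against 462 and 520.0 TPM in those of sample 2. Their summed level was 911 ± 594 TPM (SD, n = 2). Egr1, Ier2, Dusp1 and Zfp36 carried most of it, 90.9% and 87.1% in sample 1, against 92.1% and 86.8% in sample 2.

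**Figure D1:**
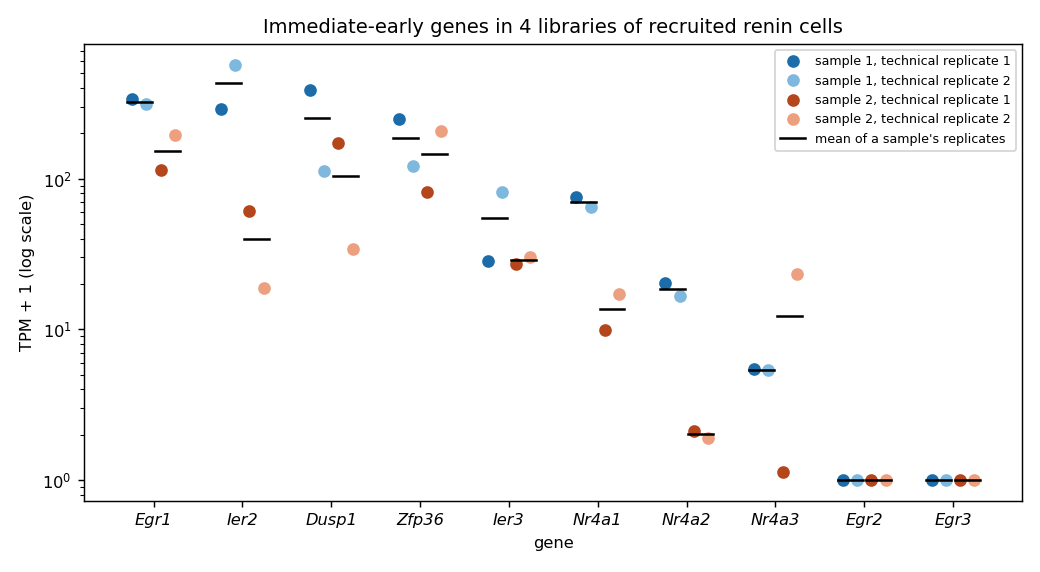
TPM + 1 on a log axis for each of the 10 genes in order of their level. Points are libraries, sample 1 in blues left of sample 2 in reds, and bars are the means of each sample's technical replicates. Egr1, Ier2, Nr4a1 and Nr4a2 lie higher in both libraries of sample 1, whereas the points of Dusp1, Zfp36, Ier3 and Nr4a3 overlap, and Egr2 and Egr3 sit at 0 TPM.

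Among the transcription factors of the Egr family, Egr1 was measured at 337 and 310.3 TPM in sample 1, against 112 and 193 TPM in sample 2. Both libraries of sample 1 were above both of sample 2. The level was 238 ± 121 TPM (SD, n = 2), above 97.7% of the 19229 genes detected, and the fold of sample 1 over sample 2 was 2.12, with technical replicates 1.09-fold and 1.72-fold apart. Egr1 was second among the members in each of the 4 libraries. Its share of the members' summed TPM was 24.3% in both libraries of sample 1, against 24.3% and 37.1% in sample 2.

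Egr2 and Egr3, which bind the same GC-rich sites as Egr1 and are known for roles in myelination and in muscle spindles, were listed at 0 TPM with 0 estimated counts in each library. Over the whole series 13418 symbols (41.1%) were listed at 0 in all 4 libraries. A listed 0 can come from the quantification as well as from a lack of transcript. Of 14 housekeeping genes checked, none was at exactly 0 in a library, though Tbp, a general transcription factor, stood at 0.217 and 1.94 TPM in sample 1 and at 0.0267 and 0.0133 TPM in sample 2. Egr4 was also listed at 0. Of the corepressors of Egr proteins, Nab1 gave 0.523 and 1.19 TPM in sample 1, against 0.329 and 19.6 TPM in sample 2. The technical replicates of sample 2 were 59.5-fold apart for Nab1. Nab2 was low, at 2.76 and 1.88 TPM in sample 1, against 0.630 and 0.105 TPM in sample 2. None of Egr4, Nab1 and Nab2 reached 1 TPM in every library, beside 9.74% of all symbols.

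The Nr4a receptors are induced by cyclic AMP and calcium in many endocrine cells. Nr4a1 (Nur77) was measured at 74.5 and 63.4 TPM in sample 1, against 8.95 and 16.2 TPM in sample 2. The samples did not overlap, and sample 1 was 5.49-fold higher, more than the technical folds of 1.18 and 1.81. Its level was 40.8 ± 39.9 TPM (SD, n = 2), above 91.6% of detected genes.

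Nr4a2 (Nurr1), best known in dopaminergic neurons, was measured at 19.3 and 15.7 TPM in sample 1, against 1.11 and 0.909 TPM in sample 2. This was a 17.3-fold difference of sample 1 over sample 2, with technical folds of 1.23 and 1.22. The level was 9.26 ± 11.7 TPM (SD, n = 2). The authors' deposited mean, which leaves out technical replicate 1 of sample 1, was 5.90 TPM.

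Nr4a3 (Nor1), unlike Nr4a1 and Nr4a2, overlapped between the samples. It was measured at 4.43 and 4.37 TPM in sample 1, against 0.130 and 22.5 TPM in sample 2. The technical replicates of sample 2 were 172-fold apart, 1 below and 1 above both libraries of sample 1. The level of 7.85 ± 4.88 TPM (SD, n = 2) therefore rested on 1 library, which held 71.6% of the gene's TPM. Without that library sample 1 was higher than sample 2, and without the other library of sample 2 it was lower. In the library with 0.130 TPM the effective length given to Nr4a3 was 1694 bases. In sample 1 it was 5578 and 5782 bases and in technical replicate 2 of sample 2 it was 5192 bases. The 32.6 estimated counts listed for the library with 0.130 TPM were derived from TPM and are not the reads behind that length. Within the family, Nr4a1 gave 75.8% and 76.0% of the TPM in sample 1, against 87.8% and 40.9% in sample 2, and Nr4a3 gave 4.51% and 5.23% in sample 1, against 1.28% and 56.8% in sample 2. Of the retinoid X receptors, with which Nr4a1 and Nr4a2 pair, none reached 1 TPM in every library, beside 9.74% of all symbols. Rxrb gave 11.8 and 3.16 TPM in sample 1, against 0.0509 and 1.69 TPM in sample 2, and Rxra gave 1.18 and 0.00603 TPM in sample 1, against 0.0119 and 6.43 TPM in sample 2. Rxrg averaged 0.10 TPM in sample 1 and 0 TPM in sample 2.

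**Figure D2:**
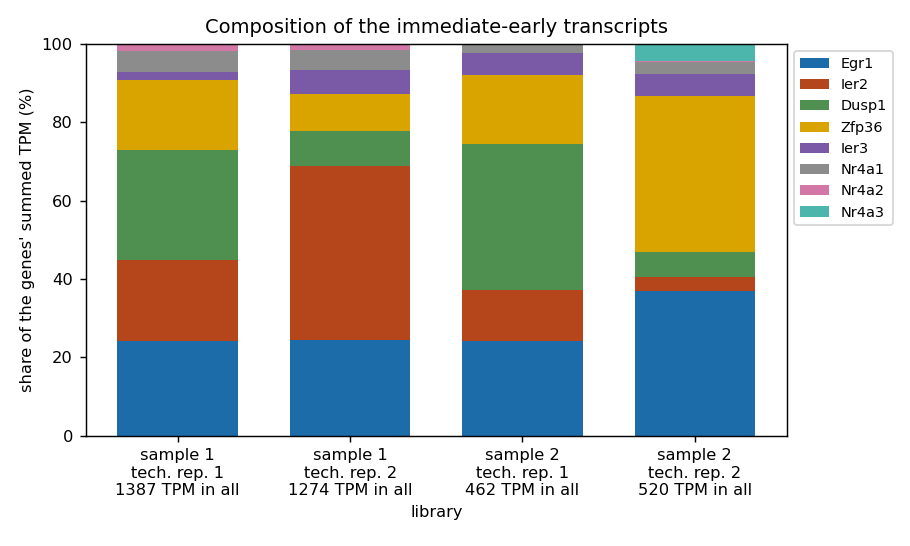
Stacked bars of the share of the members' summed TPM (%) held by each gene in the 4 libraries, sample 1 left of sample 2, with the summed TPM under each bar. Egr1 holds 24.3% to 37.1% in every library, while Ier2 holds 20.7% and 44.6% in sample 1 against 13.0% and 3.43% in sample 2.

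Of the Ier genes, Ier2 encodes a small nuclear protein of the early growth response, and Ier3 (IEX-1) modulates apoptosis and ERK signalling. Ier2 was measured at 287 and 569 TPM in sample 1, against 60.0 and 17.9 TPM in sample 2. Both libraries of sample 1 were above both of sample 2, and sample 1 was 11.0-fold higher, with technical folds of 1.98 and 3.36. With 1 library left out the fold ranged from 7.13, without technical replicate 2 of sample 2, to 24.0, without its technical replicate 1. Its level was 233 ± 275 TPM (SD, n = 2), so the SD over samples exceeded the mean. Its effective length was 341 and 391 bases in sample 1 and 299 and 402 bases in sample 2, which was 19.7% to 26.4% of its single 1522-base transcript. Over 105 genes with a single transcript of 900 to 2500 bases, the median of this percentage was 57.3% to 76.8% by library, and 1.90% to 3.81% of them were below Ier2. A short effective length gives more TPM for each read, so the standing of Ier2 beside Egr1 in TPM depends on the effective length used. Estimated counts were 3341 and 11452 for Ier2 in sample 1 and 1181 and 482 in sample 2. For Egr1 they were 20677 and 32868 in sample 1 and 11619 and 27371 in sample 2. These counts were derived from TPM and gene length, so they are not a separate measure of reads.

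Ier3 was measured at 27.5 and 80.6 TPM in sample 1, against 26.2 and 29.1 TPM in sample 2. One library of sample 1 was high and the other 3 libraries were close together, so the samples overlapped. The fold of sample 1 over sample 2 was 1.95, and without that high library it was 0.994. The level was 40.8 ± 18.7 TPM (SD, n = 2). Of the other members of the family, Ier5l reached 1 TPM in every library, at 10.7 and 5.96 TPM in sample 1, against 6.61 and 1.48 TPM in sample 2. Ier5 gave 9.42 and 2.41 TPM in sample 1, against 0.545 and 15.9 TPM in sample 2.

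Dusp1 (MKP-1), which dephosphorylates p38, JNK and ERK, was measured at 388 and 111.5 TPM in sample 1, against 172 and 33.3 TPM in sample 2. In each sample technical replicate 1 was the higher, by 3.48-fold in sample 1 and 5.16-fold in sample 2, and the samples overlapped. The fold of sample 1 over sample 2, 2.43, was smaller than either technical fold. With 1 library left out it ranged from 1.09, without technical replicate 1 of sample 1, to 7.50, without technical replicate 1 of sample 2. The samples did not overlap without that library of sample 2, nor without technical replicate 2 of sample 1. The level was 176 ± 104 TPM (SD, n = 2), while the authors' deposited mean over 3 libraries was 106 TPM. Of 10 other MAP kinase phosphatases 0 reached 1 TPM in every library, beside 9.74% of all symbols. Dusp2 and Dusp4 were listed at 0. Dusp5, which acts on ERK in the nucleus, was detected in sample 1 at 9.39 and 22.6 TPM, against 0.0146 and 0.0593 TPM in sample 2. Dusp7 gave 4.03 and 0.472 TPM in sample 1, against 0.147 and 0.00822 TPM in sample 2. Dusp6 and Dusp8 were at or under 2.52 TPM in all libraries.

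Zfp36 (tristetraprolin) was measured at 249.5 and 119.8 TPM in sample 1, against 81.1 and 207 TPM in sample 2. Each sample had 1 high and 1 low library, and the samples overlapped. The level was 164 ± 28.6 TPM (SD, n = 2), and the fold between samples was 1.28, less than the technical folds of 2.08 and 2.56. It was 0.831 without technical replicate 1 of sample 1 and 0.891 without technical replicate 1 of sample 2, so its direction turned with the library left out. It was 2.28 without technical replicate 2 of sample 2. This small SD does not hold the technical spread. Its relatives Zfp36l1 and Zfp36l2 also reached 1 TPM in every library, and Zfp36l3 was listed at 0. Zfp36l1 gave 47.4 and 17.1 TPM in sample 1, against 17.3 and 8.85 TPM in sample 2, and Zfp36l2 gave 17.8 and 11.9 TPM in sample 1, against 27.7 and 4.99 TPM in sample 2. Of 11 cytokines and other transcripts known as targets of Zfp36, 2 reached 1 TPM in every library. Of all symbols 9.74% did, and of those above 0 TPM in any library 16.5% did. The 2 targets were the chemokine Ccl2 and the growth factor Vegfa. Ccl2 gave 26.4 and 7.80 TPM in sample 1, against 3.23 and 2.09 TPM in sample 2. Vegfa gave 5.12 and 2.33 TPM in sample 1, against 15.8 and 7.11 TPM in sample 2. Tnf, Cxcl2 and Il10 were listed at 0. Ccl3 was at 43.3 TPM in technical replicate 2 of sample 2 and at or under 0.206 TPM in the other libraries. Il6 gave 2.08 and 0.711 TPM in sample 1, against 0.552 and 2.14 TPM in sample 2.

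In order of level the members ran Egr1, Ier2, Dusp1, Zfp36, Ier3, Nr4a1, Nr4a2, Nr4a3, and then Egr2 and Egr3 at 0. The mean of Zfp36 in either sample was above that of Ier3 in both samples, and so was that of Nr4a3 above Egr2 at 0. Between the other neighbours the ranges of the sample means overlapped. The first 4 genes changed places from library to library: Dusp1 was highest in technical replicate 1 of sample 1, Ier2 in technical replicate 2 of sample 1, Dusp1 in technical replicate 1 of sample 2 and Zfp36 in technical replicate 2 of sample 2. In that last library Ier2, at 17.9 TPM, was below Ier3 at 29.1 TPM and Nr4a3 at 22.5 TPM. Zfp36 was above Ier3 and Nr4a1 was above Nr4a2 in 4 of 4 libraries. The order of Ier3 and Nr4a1, at 40.8 TPM each, was not resolved.

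Set sample by sample, 4 of the 10 members (Egr1, Nr4a1, Nr4a2 and Ier2) were higher in both libraries of sample 1 than in both of sample 2, 0 were higher in both libraries of sample 2, and 4 overlapped. Over the 12301 genes that reached 1 TPM in any library, 26.4% were higher in both libraries of sample 1 and 12.1% in both of sample 2. Over the 3179 genes at 1 TPM or more in every library these shares were 25.0% and 17.9%. The median log2 ratio of TPM + 1, sample 1 over sample 2, was 1.01 over the 10 members and 1.18 over the 8 above 0 TPM, beside 0.44 over genes at 1 TPM in any library and 0.16 over those at 1 TPM in every library. With 1 sample on each side this is a difference between these samples and has no test.

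**Figure D3:**
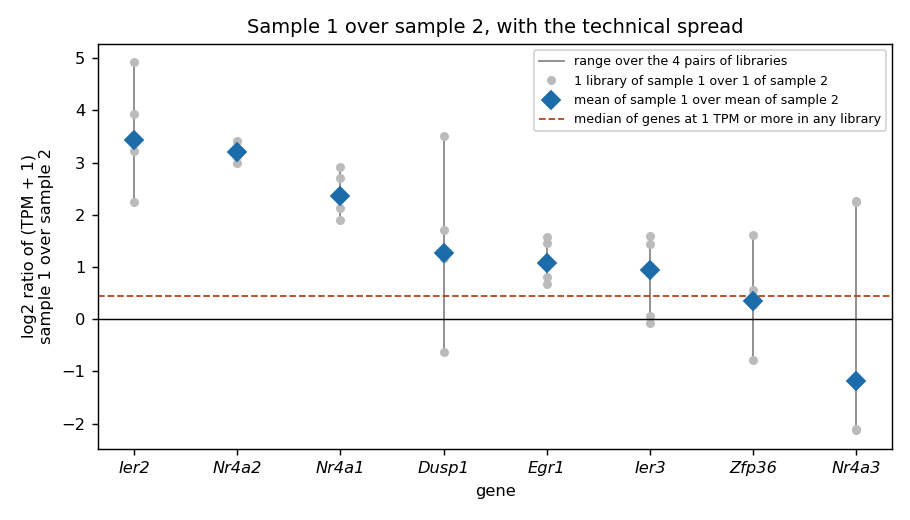
The log2 ratio of TPM + 1, sample 1 over sample 2, for the 8 detected genes. Diamonds are the means of each sample, grey points the 4 pairs of single libraries with lines for their range, and the dashed line is the median of 0.44 over genes that reached 1 TPM in any library. All pairs of Ier2, Nr4a2, Nr4a1 and Egr1 lie above 0, and the pairs of Dusp1, Ier3, Zfp36 and Nr4a3 lie on both sides of it.

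Sample 1 also had the higher Ren1 and the lower thick limb, distal and collecting duct markers in both libraries, and the part of cell composition in the ratios was not tested. Mitochondrially encoded genes held 10.4% and 9.26% of TPM in sample 1, against 25.9% and 14.9% in sample 2. The part of this difference in the ratios was not tested. Relative to Ren1, the members summed to 46.8 and 44.4 TPM per 1000 TPM of Ren1 in sample 1, against 21.1 and 32.6 in sample 2, still without overlap. On this scale, chosen after the values were seen, 3 members (Nr4a1, Nr4a2 and Ier2) were higher in both libraries of sample 1 and 0 in both of sample 2, against 19.3% and 16.6% of the 12301 genes. Egr1 then overlapped, at 11.4 and 10.8 TPM per 1000 TPM of Ren1 in sample 1, against 5.12 and 12.1 in sample 2. Leukocyte markers, of which Cd68 and Lyz2 were listed at 0, summed to 10.7 and 351 TPM in sample 1, against 135 and 256 TPM in sample 2, nearly all from Cd74. Endothelial markers summed to 37.9 and 48.7 TPM in sample 1, against 51.6 and 141 TPM in sample 2. The highest of these were Egfl7, with 126 TPM in technical replicate 2 of sample 2, and Emcn, with 39.2 and 41.3 TPM in 1 library of each sample. Podocyte markers summed to 13.6 to 91.2 TPM and fibroblast markers to 9.75 to 42.6 TPM over the libraries.

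The AP-1 genes, whose products pair as Fos and Jun dimers and which respond to the same signals, were also mostly higher in sample 1. Of 7, 6 reached 1 TPM in every library and the same 6 were higher in both libraries of sample 1, or 3 relative to Ren1, and Fosl1 was listed at 0. Over genes at 1 TPM in any library, 26.4% were higher in both libraries of sample 1, or 19.3% relative to Ren1. Of all symbols 9.74% reached 1 TPM in every library. Fos was above every member in each library, at 1200.0 and 791 TPM in sample 1, against 615 and 413 TPM in sample 2. Junb gave 172 and 117 TPM in sample 1, against 76.9 and 116 TPM in sample 2, and Fosb gave 87.9 and 236 TPM in sample 1, against 33.5 and 32.8 TPM in sample 2. Jund gave 126 and 163 TPM in sample 1, against 20.6 and 23.8 TPM in sample 2. The summed TPM of the 10 members over that of the AP-1 genes was 0.825 and 0.929 in sample 1, against 0.586 and 0.852 in sample 2.

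Of 44 other early response genes, 27 reached 1 TPM in every library, 18 were higher in both libraries of sample 1 and 3 in both of sample 2, with a median log2 ratio of 0.79. Relative to Ren1, 12 were higher in both libraries of sample 1 and 7 in both of sample 2. Over the 12301 genes that reached 1 TPM in any library the shares were 26.4% and 12.1%, or 19.3% and 16.6% relative to Ren1. The median log2 ratio of those genes was 0.44. Over all symbols 9.74% reached 1 TPM in every library. The highest of the 44 were Id3, Id1 and Id2, inhibitors of basic helix-loop-helix factors, and Gadd45g, a stress-response gene. Id3 gave 925 and 955 TPM in sample 1, against 757 and 599.9 TPM in sample 2. Id1 gave 629 and 786 TPM in sample 1, against 179 and 503 TPM in sample 2. Id2 was higher in sample 2, at 381 and 251 TPM in sample 1, against 409.6 and 442 TPM in sample 2, as were Mcl1 and Edn1, and Gadd45g overlapped, at 708 and 177 TPM in sample 1, against 146 and 426 TPM in sample 2.

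**Figure D4:**
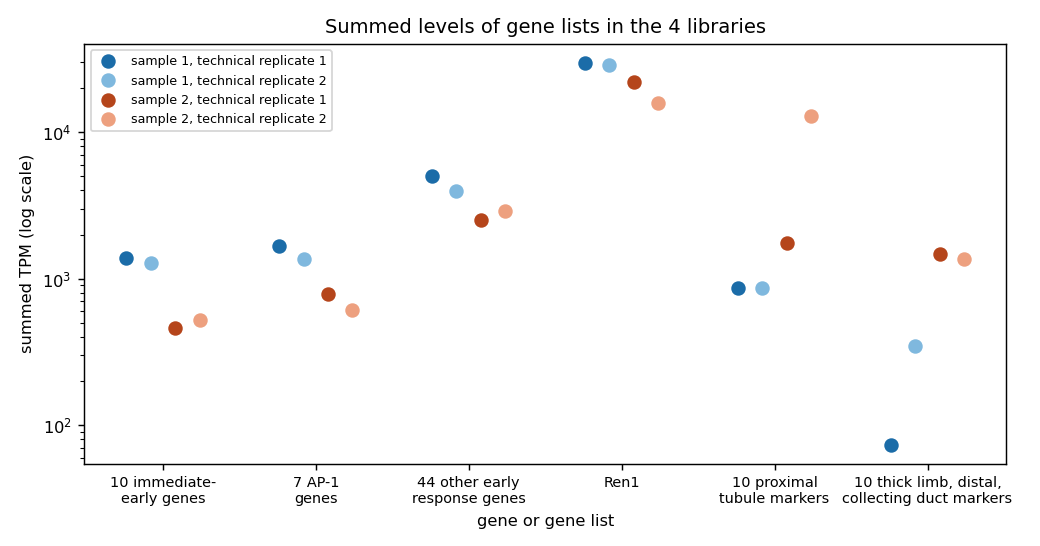
Summed TPM on a log axis of the 10 genes, 7 AP-1 genes, 44 other early response genes, Ren1 and 2 lists of tubule markers, with a point for each library, sample 1 in blues left of sample 2 in reds. The first 4 groups are higher in both libraries of sample 1 and the sums of both lists of tubule markers are higher in both libraries of sample 2, for the proximal list through Kap.

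Of 31 genes of the signalling that reaches serum response factor and CREB, 10 reached 1 TPM in every library, beside 9.74% of all symbols. Of the 31, 14 were higher in both libraries of sample 1 and 4 in both of sample 2. Over genes at 1 TPM in any library the shares were 26.4% and 12.1%. Relative to Ren1, 10 of the 31 were higher in sample 1 and 5 in sample 2, beside 19.3% and 16.6% of those genes. The median log2 ratio of the 31 genes, sample 1 over sample 2, was 0.52, beside 0.44 over genes at 1 TPM in any library. Mapk3, which encodes ERK1, gave 27.0 and 108 TPM in sample 1, against 30.9 and 7.15 TPM in sample 2. The coactivator Crebbp gave 32.2 and 7.66 TPM in sample 1, against 15.1 and 38.0 TPM in sample 2. Crem, a cyclic AMP-responsive factor, split by technical replicate, with 44.6 and 4.26 TPM in sample 1, against 36.7 and 3.62 TPM in sample 2. Map2k2, an activator of ERK, was higher in sample 1, at 18.9 and 39.0 TPM, against 13.4 and 16.2 TPM in sample 2.

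The genes outside these lists whose spread over the 4 libraries was nearest to that of the summed members were Rps3a1, Tcf25, Tob2, Wdr1 and Krt19, with a sum of absolute differences in library shares of 0.0309 to 0.0842. Rps3a1, a ribosomal protein gene, gave 1626 and 1539 TPM in sample 1, against 529 and 686 TPM in sample 2. Of the members Egr1 was nearest to the sum, at 0.119, and 0.944% of the 3179 genes at 1 TPM or more in every library were as near or nearer. Nr4a3 was the farthest, at 1.15. With 4 libraries many genes share a spread by their number alone, and the likeness is a description.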

How the data were processed

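RNA-seq of recruited renin cells gave 4 libraries, 2 technical replicates of each of 2 samples. The authors trimmed reads with Trimmomatic 0.36, ran Salmon 0.7.2 on GRCm38 transcripts (Ensembl release not given in the sources used here) and summed to genes with Tximport 1.2.0 (lengthScaledTPM). Deposited by the authors were TPM, estimated counts derived from TPM, gene length and library size, effective lengths (a score in bases) and a mean TPM, which equals that of 3 libraries without technical replicate 1 of sample 1 (0 rows differ). Amplification from few cells had no molecular identifiers, so totals do not give molecules and no counting interval is given.

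Levels, ratios on TPM + 1 and counts were computed with Python 3.11.15, pandas 2.3.3 and numpy 2.4.6, and drawn with matplotlib 3.10.9. The code for ratios and for counts by sample was checked on simulated libraries that spread less than these technical replicates. That check does not show how the rule behaves at the spread of these data. No p-value was computed, since there is 1 condition. Coordinates come from GENCODE M21. Members and lists were chosen with earlier results of these data known. Named were all members, the highest 4 non-members of each list with genes behind counts of 5 or fewer, the highest 2 of each marker list, of which only those that bear on a result are given, and the 5 nearest profiles. A result that this rule would name is not reported here. Tbp, Ier2's length and the motif search were chosen after values were seen. Alternatives left out each sample and technical replicate, rescaled TPM, and changed the minimum, the average and the pseudocount.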

Additional observations from a re-analysis of the deposited data

Results flagged for a closer look

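Of 17 quantities examined over the 4 libraries (the TPM and the effective length of the 8 detected genes, and the summed TPM), 2 had 1 library far from the others. Chance gives about 1 in 20 for independent values, a rate that does not hold here, since the libraries are technical replicates of 2 samples and both quantities of a gene are linked. Ier3 stood at 80.6 TPM in technical replicate 2 of sample 1, against 27.5 TPM in the other library of sample 1 and 26.2 and 29.1 TPM in sample 2. The effective length of Nr4a3 stood at 1694 bases in technical replicate 1 of sample 2, against 5578 and 5782 bases in sample 1 and 5192 bases in the other library of sample 2. The Nr4a3 value of 0.130 TPM belongs to that library, and the part of transcript choice in it was not tested.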

How the results depend on the processing

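The count of members at 1 TPM or more in every library stayed between 5 and 8 under each alternative run. It was 7 at a minimum of 0.5 TPM and 5 at 10 TPM, 6 to 8 without 1 sample and 6 to 7 without 1 technical replicate. Leaving out libraries can only keep or raise this count. Summed TPM moved to 1650.4 after rescaling without the 20 highest genes. It was 491 without sample 1, 1331 without sample 2, 883 to 939 without 1 technical replicate and 752 with the authors' mean. The count higher in both libraries of sample 1 was 5 to 7 when 1 technical replicate was left out. It was 7 without technical replicate 2 of sample 2, where Nr4a3, Ier3 and Zfp36 joined. The count higher in sample 2 was 0 to 1, the 1 being Nr4a3 without technical replicate 1 of sample 2. Leaving out a library can only keep or raise both counts, and the share over all genes was not computed for these settings. The median log2 ratio ranged from 0.57 to 1.35 without 1 technical replicate and from 0.90 to 1.02 over pseudocounts of 10 and 0.1 TPM. It was 0.84 after rescaling without mitochondrially encoded genes and 0.99 after rescaling without the 20 highest genes. Relative to Ren1 it was 0.57 over the 8 members above 0 TPM. Without sample 1 the level of Nr4a2 was 1.01 TPM and that of Ier2 38.9 TPM. Without sample 2 they were 17.5 and 428 TPM. The level of Nr4a3 was 2.26 TPM without technical replicate 2 of sample 2 and 13.4 TPM without technical replicate 1. The cause of these shifts was not tested. No paired analysis was possible because there is 1 group. The spread between technical replicates limits what is known of a single gene.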
